A study of Mus musculus with 2 samples.

Results

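The 10 genes described here belong to the late neutrophil programme and were followed in sorted blood stem cells from mice with and without the circular RNA cia-cGAS: Ltf, Ngp, Camp, Lcn2, Mmp8, Mmp9, Cd177, Padi4, S100a8 and S100a9. They were found by gene name in the array annotation, from a list chosen with earlier results of these data known. Each of the 10 had 1 transcript row, out of 24171 genes measured. Total RNA came from bone marrow cells of C57BL/6 mice aged 8 weeks, sorted as long-term haematopoietic stem cells (LT-HSCs, from which blood is renewed throughout life), and was labelled with Cy3 for a single-colour NimbleGen array. There was 1 array of cia-cGAS wild-type cells and 1 array of cia-cGAS knockout cells, of the same strain, age, tissue and sorted population. The surface markers of the sort, the number of animals and cells behind each array and the way the knockout was made are not stated in the labels used here. With 1 array per group, no difference has a replicate check and no test between the groups was possible. All values below describe these 2 arrays, and the number of arrays limits their precision.

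Neutrophils fill their granules in sequence as they mature in the marrow. Primary granules, loaded first, hold myeloperoxidase and serine proteases, while the specific and gelatinase granules that follow hold lactoferrin, cathelicidin, lipocalin and metalloproteases. S100A8 and S100A9 pair as calprotectin, which fills the cytosol of mature neutrophils, and PADI4 is the enzyme that citrullinates histones when neutrophils release their chromatin. These genes are known as markers of maturing neutrophils and not of LT-HSCs.

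All 10 genes were detected on both arrays, and every one of them read higher in the knockout. On the wild-type array their ranks ran from 57 (S100a9) to 6445 (Padi4) of 44170 rows, with 4 of the 10 among the brightest 500. Padi4 was 2.55-fold higher, Cd177 and Lcn2 were each 2.05-fold higher, Mmp8 was 1.83-fold higher and S100a8 1.79-fold. Camp, Ltf and Mmp9 were 1.30-fold, 1.25-fold and 1.25-fold higher, Ngp was 1.16-fold higher, and S100a9 was nearly equal on both arrays at 1.02-fold. The 10 genes had a median difference, knockout minus wild type, of 0.61 on the log2 scale (1.53-fold), against -0.04 for the 9238 genes detected on both arrays. A 2-fold higher level was reached by 3 of the 10 and a 2-fold lower level by 0. Of the 9238 genes, 5.37% reached 2-fold upwards, 4.19% reached 2-fold downwards and 46.4% had a difference above 0.

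**Figure D1:**
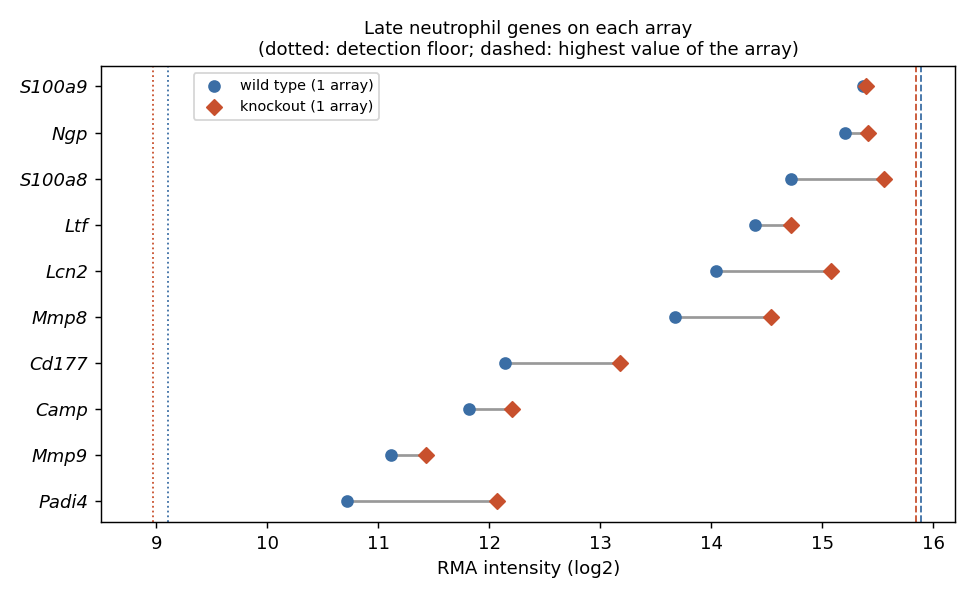
RMA intensity (log2, horizontal axis) of each of the 10 genes on the wild-type array (circles) and the knockout array (diamonds), 1 array per group and no error bars, with genes ordered by wild-type level. Dotted lines mark the detection floor of each array (9.11 and 8.97) and dashed lines its highest value (15.89 and 15.84); every gene lies above both floors and every diamond lies to the right of its circle, by 0.02 for S100a9 up to 1.35 for Padi4.

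A value was called detected when it passed the 95th percentile of 1025 smell, pheromone and taste receptor rows, a floor at 9.11 (log2) on the wild-type array and 8.97 on the knockout array. All 10 genes were above both floors, the nearest being Padi4, which was 1.61 above it in the wild type. Where a gene had several detected rows (2892 genes), their differences scattered around the gene's mean with an SD, pooled over genes, of 0.37 (log2). This SD measures how far probe sets of the same gene disagree within these 2 samples, not the spread between animals. Of the 10 differences, 6 were larger than it and 5, those of Padi4, Cd177, Lcn2, Mmp8 and S100a8, were more than 2 times as large. The differences of all 9238 genes detected on both arrays had an SD of 0.66, larger than the row SD. The share of these genes past the same limits was not computed. At 1.5-fold, which lies between the 2 limits, 5 of the 10 and 11.4% of the 9238 genes were higher.

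Of the specific granule proteins that bind iron, Ltf encodes lactoferrin and Lcn2 encodes lipocalin 2, which captures bacterial siderophores. Ltf read an intensity of 21550 on the wild-type array and 26879 on the knockout array (14.40 and 14.71 on the log2 scale), a difference of 0.32 (gene ID 17002, transcript on MM9 chromosome 9 from 110921812 to 110944817). Lcn2 read 16882 and 34620 (14.04 and 15.08), a difference of 1.04 (gene ID 16819, chromosome 2 from 32240184 to 32243259). Both genes were among the brightest rows of the arrays, and the difference of Lcn2 was the larger by more than the row SD of 0.37. Lcn2 moved from rank 580 to rank 139 of 44170 rows and Ltf from rank 399 to rank 279.

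Camp and Ngp encode proteins of the cathelicidin family, Camp the antimicrobial peptide precursor and Ngp the neutrophilic granule protein. Camp read 3614 in wild-type cells and 4714 in knockout cells (11.82 and 12.20 on the log2 scale), a difference of 0.38 (gene ID 12796, chromosome 9 from 109749924 to 109751967). Ngp read 37680 and 43654 (15.20 and 15.41), a difference of 0.21 (gene ID 18054, chromosome 9 from 110322352 to 110324987). Neither reached 2-fold, and the difference of Ngp was below the row SD. Camp, Ngp, Ltf and Mmp8 are the 4 of the 10 genes on chromosome 9, with differences from 0.21 to 0.87.

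The metalloproteases Mmp8 (neutrophil collagenase) and Mmp9 (gelatinase B, the defining enzyme of gelatinase granules) cut collagen and other matrix proteins. Mmp8 read 13057 in wild-type cells and 23842 in knockout cells (13.67 and 14.54), a difference of 0.87 (gene ID 17394, chromosome 9 from 7558447 to 7568030). Mmp9 read 2218 and 2763 (11.11 and 11.43), a difference of 0.32 (gene ID 17395, chromosome 2 from 164773750 to 164781346). The difference of Mmp8 exceeded the row SD and that of Mmp9 did not.

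Cd177 encodes a glycoprotein of the neutrophil surface and specific granule membrane, and Padi4 the peptidylarginine deiminase of neutrophil nuclei. Cd177 read 4515 in wild-type cells and 9261 in knockout cells (12.14 and 13.18), a difference of 1.04 (gene ID 68891, chromosome 7 from 25529001 to 25545330). Padi4 read 1688 and 4304 (10.72 and 12.07), a difference of 1.35 (gene ID 18602, chromosome 4 from 140301422 to 140306428). Padi4 was the dimmest of the 10 rows on the wild-type array and had the largest difference of the 10. It passed from rank 6445 to rank 2889, and Cd177 from rank 2568 to rank 1302.

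S100a8 and S100a9 encode the partners of calprotectin and lie 22602 bases apart on chromosome 3 of MM9. S100a8 read 26987 in wild-type cells and 48288 in knockout cells (14.72 and 15.56), a difference of 0.84 (gene ID 20201, from 90473006 to 90473952). S100a9 read 42256 and 42993 (15.37 and 15.39), a difference of 0.02 (gene ID 20202, from 90496554 to 90499613). The gap between the differences of these partners was larger than the row SD of 0.37, although both rows lie where the scale leaves little room. S100a8 went from rank 278 to rank 18 of 44170 rows, whereas S100a9 stood at 57 and 52.

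Promoter sequences of 9 of the 10 genes matched by gene ID and symbol in RefSeq tables of build GRCm38.p6, a different build from that of the array annotation. The 250 bases before the start of each gene were searched on both strands for letters resembling the sites of C/EBP factors (TTGCNNAA), of PU.1 (GAGGAAG) and of the core of interferon response elements (GAAANNGAA), 3 patterns whose matches did not overlap in these windows. C/EBP factors and PU.1 are known regulators of granulocyte genes, and interferon response elements are bound by factors downstream of interferon receptors. The C/EBP letters were found in 5 of the 9 promoters (Lcn2, Mmp8, Ngp, Ltf and S100a9), against 9.56% of 32851 promoters in the table. The PU.1 letters were found in 3 (Lcn2, Mmp8 and S100a8), against 10.6%, and the interferon response letters in 0, against 7.13%. A match of letters is a description and not evidence of binding. The calprotectin pair is printed because its partners differed in the size of their difference, and Lcn2 and Ngp because both carry C/EBP letters while their differences were 1.04 and 0.21. Each sequence runs 5′ to 3′ on the strand of its gene, and capitals mark every match. The windows are chr3:90668821-90669070 (plus strand) for S100a8, chr3:90695722-90695971 (minus) for S100a9, chr2:32387740-32387989 (minus) for Lcn2 and chr9:110419558-110419807 (plus) for Ngp.
S100a8: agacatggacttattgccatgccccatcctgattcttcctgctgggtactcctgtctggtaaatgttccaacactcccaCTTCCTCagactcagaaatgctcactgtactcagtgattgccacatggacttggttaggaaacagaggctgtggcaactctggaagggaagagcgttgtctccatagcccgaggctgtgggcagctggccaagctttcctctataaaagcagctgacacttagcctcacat
S100a9: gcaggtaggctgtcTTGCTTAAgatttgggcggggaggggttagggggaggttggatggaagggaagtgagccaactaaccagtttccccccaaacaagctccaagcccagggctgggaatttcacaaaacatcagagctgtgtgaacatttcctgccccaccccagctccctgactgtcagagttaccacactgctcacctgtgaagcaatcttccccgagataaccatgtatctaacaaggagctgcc
Lcn2: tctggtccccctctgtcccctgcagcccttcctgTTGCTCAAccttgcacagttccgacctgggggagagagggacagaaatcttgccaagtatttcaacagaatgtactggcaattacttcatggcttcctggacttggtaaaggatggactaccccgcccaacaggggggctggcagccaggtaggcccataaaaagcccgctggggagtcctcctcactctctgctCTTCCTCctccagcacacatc
Ngp: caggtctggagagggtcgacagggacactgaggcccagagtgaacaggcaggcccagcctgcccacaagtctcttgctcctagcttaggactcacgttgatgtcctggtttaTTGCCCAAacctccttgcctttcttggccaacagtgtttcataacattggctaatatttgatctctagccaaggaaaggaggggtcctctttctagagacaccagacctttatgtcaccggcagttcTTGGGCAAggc
In S100a8 the capitals are the PU.1 letters CTTCCTC, 171 to 165 bases before the start, and in S100a9 they are the C/EBP letters TTGCTTAA, 236 to 229 bases before it. Lcn2 holds the C/EBP letters TTGCTCAA (216 to 209 bases before the start) and the PU.1 letters CTTCCTC (21 to 15 bases before it). Ngp holds C/EBP letters at 2 places, TTGCCCAA (138 to 131 bases before the start) and TTGGGCAA (11 to 4 bases before it). Matches were thus present in promoters of genes with large and with small differences.

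The level of a row limits how much higher it can read, because the highest value on the knockout array was 15.84 on the log2 scale. S100a9 had room for a difference of 0.48 above its wild-type level (1.39-fold at most), and Ngp for 0.64 (1.56-fold), so neither could reach 2-fold without passing that value. S100a8 had room for 1.12 (2.18-fold) and its difference took up 74.8% of it. Lcn2 took up 57.6% of its room of 1.80, Mmp8 40.0% of 2.17, Ngp 33.1% and Ltf 22.0% of 1.45. For the dimmer genes the room was wide, at 3.70 for Cd177, 4.02 for Camp, 4.73 for Mmp9 and 5.12 for Padi4, of which Padi4 used 26.4%, Camp 9.53% and Mmp9 6.71%. Small differences were therefore found both near the top (S100a9, Ngp) and well below it (Mmp9, Camp), and only for the former does the scale set a low limit.

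Near the top of the scale, few genes read much higher in the knockout. Among the 432 genes detected on both arrays with a wild-type level of 14 or more, 5 (1.16%) reached 2-fold upwards and 30 (6.94%) reached it downwards, with an SD of differences of 0.51. Among the 1869 genes with a wild-type level from 11 to 12, 115 reached 2-fold upwards and 122 downwards, with an SD of 0.70. Of the 10 late neutrophil genes, Lcn2, Ltf, Ngp, S100a8 and S100a9 lay in the top band, where the median difference was -0.18, and all 5 had a positive difference. Lcn2 was 1 of the 5 genes at least 2-fold higher there, the others including Rsad2, Usp25 and Mcl1, chosen after their values were seen. S100a8 had the largest difference among the 194 genes at or above its wild-type level, whose median was -0.21. Among the 39 genes at or above the level of S100a9, 7 had a larger difference than it, and the largest was 0.13. Among the 78 at or above the level of Ngp, 1 had a larger difference. These bands and sets were formed on the wild-type level alone, which is also subtracted in the difference. Noise in that level can therefore lower the medians of bright genes. A smooth curve of the differences of all genes over the mean level of both arrays stood at -0.07 for S100a8. How far this choice of level, or compression at the top, sets these values was not tested.

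**Figure D2:**
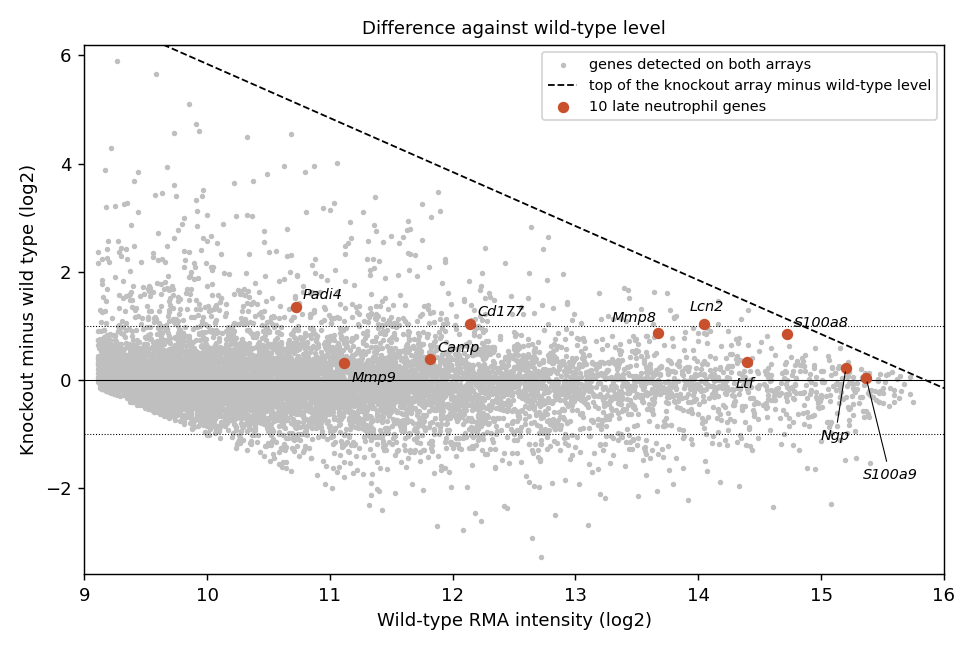
Difference between knockout and wild type (log2, vertical axis) against the wild-type RMA intensity (log2, horizontal axis) for 9238 genes detected on both arrays (grey) and the 10 late neutrophil genes (red, named). The dashed line is the difference that would bring a gene to the highest value of the knockout array, and dotted lines mark 2-fold; S100a8 (0.84), Ngp (0.21) and S100a9 (0.02) lie close under the dashed line, while Padi4 (1.35) lies far below it.

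Other neutrophil genes on these arrays also read higher in the knockout. In the list of mature neutrophil surface and cytosol genes, 18 of 20 had a row, and 16 of them passed the floor of the wild-type array and 18 that of the knockout array. Of these 18, 9 reached 2-fold upwards and 0 downwards, beside 5.37% and 4.19% of the 9238 genes detected on both arrays. The 9 include Trem1, which was detected on the knockout array alone, so these shares are not fully like for like. They stand in the same way beside the list counts below. The 16 genes detected on both arrays had a median difference of 1.01, and all 16 differences were positive. Fpr1, a receptor for bacterial formyl peptides, was 3.78-fold higher, and the Fc receptor gene Fcgr4 3.31-fold. Fpr2, a receptor for cathelicidin peptides among others, was 3.26-fold higher, with log2 levels of 13.39 and 15.10. The smallest differences were those of Siglece (0.15), Itgb2 (0.20), which encodes the beta chain of leukocyte integrins, and C5ar1 (0.50), the receptor of complement C5a. Ly6g, a classic marker of mouse neutrophils, read 10.55 and 11.53, a difference of 0.98, although Ly6 genes are alike in sequence and can share hybridisation. The amplifying receptor gene Trem1 was detected in the knockout alone and was at least 2.72-fold higher.

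Of 16 other genes of specific and gelatinase granules, 14 had a row and 13 were detected on both arrays, 3 of them 2-fold or more upwards and 0 downwards, and their median difference was 0.48. Clec5a, an activating lectin receptor, was 4.93-fold higher, Olfm4 (olfactomedin 4) 4.27-fold and Cybb, the catalytic subunit of the NADPH oxidase, 3.04-fold. The negative differences were those of the proton channel gene Hvcn1 (-0.80) and the protease gene Adam8 (-0.17). The dimmer row of Hvcn1 differed by -1.98, past 2-fold downwards, and the dimmer rows of Anxa1 and Fcnb by 2.14 and 1.08, past it upwards. The count above uses the brightest row of each gene. The difference of Cyba, the other membrane subunit of the oxidase, was 0.00. Lyz2, the lysozyme gene, read 15.72 and 15.78, close to the top of both arrays like S100a9. Of 10 primary granule genes, 9 had a row, 6 were detected on the wild-type array and 8 on the knockout array. Of these, 2 reached 2-fold upwards and 0 downwards, and the 6 detected on both had a median of 0.56. Srgn, the proteoglycan that packs granule contents, was 2.32-fold higher, Ctsc, which activates granule proteases, 2.03-fold and Serpinb1a, an inhibitor of those proteases, 1.85-fold. The rows of Ctsc differed by 1.02 and 2.13. The proteases and peroxidase themselves differed less, by 0.23 for Ctsg, 0.14 for Elane and -0.41 for Mpo, and Prtn3 was below both floors. The difference between the late genes and the primary granule genes was not tested.

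**Figure D3:**
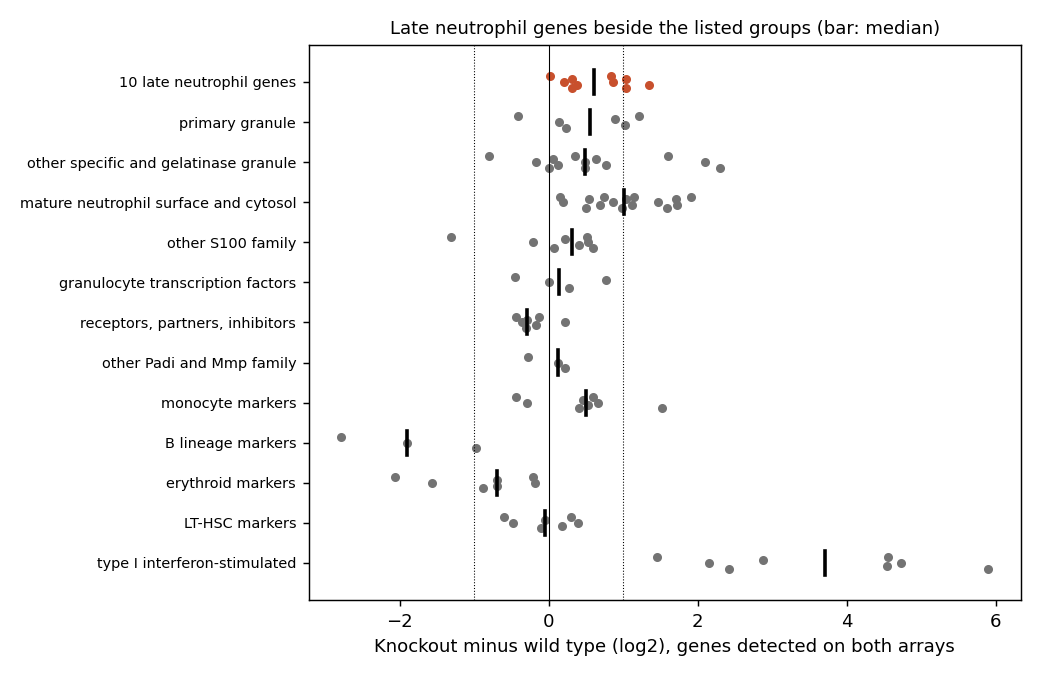
Difference between knockout and wild type (log2, horizontal axis) for the 10 late neutrophil genes (red) and for the members of each listed group detected on both arrays (grey), 1 point per gene, with vertical jitter and a black bar at the median. The median of the 10 genes is 0.61, that of the mature neutrophil surface and cytosol list 1.01, that of the type I interferon-stimulated list 3.70 and that of the B lineage list -1.90.

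By the rule for likeness, the 5 genes out of 39 neutrophil genes detected on both arrays whose difference lay nearest to the median of the 10 (0.61) were Slpi (0.64), Fcgr3 (0.55), Csf3r (0.69), C5ar1 (0.50) and Ltb4r1 (0.48). Slpi encodes a secreted protease inhibitor, Fcgr3 an Fc receptor, Csf3r the receptor for G-CSF, and Ltb4r1 a leukotriene B4 receptor. With 2 arrays the likeness rests on 1 difference per gene. The other row of Csf3r differed by 2.56, and another row of Fcgr3 by 0.02.

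Transcription factors of granulocyte formation differed in both directions. Of 8 listed, 6 had a row and 4 were detected on both arrays, 0 of them past 2-fold in any direction, and their median difference was 0.14, or -0.0012 with the rows of each gene averaged. Spi1, which encodes PU.1, differed by 0.77, more than the row SD, Runx1 by 0.28 (rows from 0.10 to 0.78), Gfi1 by 0.01 (rows from -0.76 to 0.18) and Cebpa by -0.45 (rows from -1.09 to -0.45). Cebpe, known as the factor of specific granule genes, was below both floors, at 7.45 and 7.18.

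Relatives of the 10 genes in the same gene families were seldom past 2-fold. The same holds for all genes detected on both arrays, of which 5.37% were past it upwards and 4.19% downwards. With so few relatives detected, the counts do not set them apart from all genes. Of 14 other S100 genes with a row, 8 were detected on both arrays and 6 were below both floors, with 0 past 2-fold upwards and 1 downwards, and their median difference was 0.31. S100a6, S100g and S100a4 were the highest, with differences of 0.59, 0.53 and 0.51. S100a10, which encodes the partner of annexin A2, was 2.47-fold lower (14.82 and 13.52), and S100a16 differed by -0.21. Of 21 other Padi and Mmp genes, 15 were below both floors and 3 were detected on both arrays, and 0 of the 6 detected on any array reached 2-fold. Mmp2 differed by 0.23 and Mmp3 by -0.27. Mmp12 and Mmp13 were detected in the knockout alone, at least 1.54-fold and 1.46-fold higher, although rows of Mmp12 differed from -0.71 to 0.99, and Padi6 was detected in the wild type alone, at least 1.24-fold lower in the knockout.

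Receptors, partners and inhibitors of the encoded proteins had mostly small negative differences. All 13 listed had a row and 7 were detected on both arrays, with a median of -0.28, 1 positive and 6 negative differences. Tlr4, a receptor of calprotectin, was detected in the knockout alone and was at least 2.17-fold higher, the 1 gene of the list past 2-fold, and its co-receptor gene Ly96 was below both floors. Ager, which encodes RAGE, another receptor of S100 proteins, differed by 0.23. The lowest were Slc22a17, a lipocalin 2 receptor (-0.44, rows from -0.44 to 0.20), Timp2, an inhibitor of metalloproteases (-0.35), and Pecam1, a binding partner of CD177 (-0.30, rows from -0.30 to 0.07). Timp1, the inhibitor that binds MMP9, was below both floors.

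Markers of other marrow cells also differed between the arrays. Of 11 monocyte markers, 10 were detected in the knockout and 8 in the wild type. Upwards, 3 reached 2-fold and downwards 0, and the intensities of the 11 summed to 29381 on the wild-type array and 56443 on the knockout array. Ctss alone made up 11097 and 31733 of these sums, so their rise mostly follows 1 bright gene. Ms4a6c (at least 3.51-fold), Ctss (2.86-fold) and Fcgr1 (at least 2.10-fold) were the highest, and Cd14 (-0.44) and Cd68 (-0.29) the lowest. Of 9 B lineage markers with a row, 6 passed the wild-type floor and 3 the knockout floor. Of these, 4 reached 2-fold downwards and 0 upwards, and the 9 intensities summed to 14001 and 3417. Ebf1 was 6.89-fold lower from its brightest row, Pax5 at least 5.44-fold and Cd79b 3.74-fold. Of 10 erythroid markers, 8 passed the wild-type floor and 7 the knockout floor. Ank1 was 4.19-fold, Slc4a1 2.95-fold and Alas2 1.84-fold lower, the first 2 being those past 2-fold. The intensities of the 10 summed to 101653 and 83206, most of it from Hba-a1 (43470 and 38240) and Hbb-b1 (42878 and 37093). All 7 erythroid markers detected on both arrays had a negative difference. Of 9 type I interferon-stimulated genes with a row, all 9 reached 2-fold upwards, led by Cxcl10 (59.7-fold), Ifit1 (26.6-fold) and Mx1 (23.6-fold). The part of these cells or of interferon in the values of the 10 late neutrophil genes was not tested.

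The LT-HSC label was set against 12 marker genes of those cells, of which 7 passed the wild-type floor and 8 the knockout floor. Kit (12.12 and 12.42) and Ly6a, which encodes Sca-1 (12.97 and 13.37), were detected on both arrays, with differences of 0.30 and 0.40, and Hlf on the knockout array alone, at least 1.20-fold higher from its brightest row. The 4 rows of Hlf differed from -0.00082 to 1.08. Procr, Slamf1 and Fgd5 were below both floors. The lowest differences among the markers were those of Hoxa9 (-0.60), Mecom (-0.48) and Mllt3 (-0.10), while Mecom had rows from -0.62 to 0.55 and Mllt3 from -0.88 to 0.78. The intensities of the 10 late neutrophil genes summed to 170446 on the wild-type array and 241318 on the knockout array. In these bulk samples, a different number of neutrophils or their precursors and a different amount of RNA per cell cannot be told apart, and neither can be told apart from any difference between the animals or preparations behind each array.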

How the data were processed

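Gene expression was measured on 2 single-colour NimbleGen arrays, with groups given by the genotype labels. The authors deposited linear intensities summarised by RMA per the submitters' processing notes, with no version given. In its general form RMA corrects background, gives all arrays the same distribution and summarises each row's probes, so a difference is relative to the remaining genes. Whether these 2 arrays were normalized with others is unknown here. Per the file headers, 44155 of 44170 transcript rows have 3 probes and transcripts are placed on MM9, with the counting of the first base not stated.

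Intensities were put on the log2 scale in Python 3.11.15 with pandas 2.3.3 and were not normalized again. Of the rows, 41886 carried a gene ID. Symbols were updated by gene ID from a RefSeq table of GRCm38.p6, which held the ID of 39057 rows. A gene was represented by its brightest row, averaged over the arrays, and the members had 1 row each. A gene detected on 1 array has its fold computed against the floor of the other and is given as at least that fold. List counts past 2-fold include such genes, while the shares over all genes cover those detected on both arrays. No test was run. The fold calls, the loess centring and the detection rule were tried on simulated data. The changes planted there were larger than any member's difference, with a scatter smaller than the row SD and no compression at the top.

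The members and the 12 lists were chosen with earlier results of these data known. Named genes are all members, up to 3 detected genes with the largest positive and 3 with the largest negative difference (or bound) of each list, and the 5 neutrophil genes nearest to the members' median. Siglece, Itgb2, C5ar1, Ly6g, Lyz2, Anxa1, Fcnb, Trem1, Ctsg, Elane, Prtn3, Cebpe, Ly96, Timp1, Hba-a1, Hbb-b1, Procr, Slamf1, Fgd5 and the bright genes beside Lcn2 were picked outside this rule, with values in view. Listed genes with no row matched by name are not analysed here, and some listed genes are not reported here by name. Alternatives were the mean of all rows or the dimmest row of a gene, loess centring (span 0.3, statsmodels 0.14.6), the series-wide table, a floor at the 99th percentile, no floor, and folds of 1.5 and 3.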

Additional observations from a re-analysis of the deposited data

How the results depend on the processing

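Of 99 values recomputed under alternatives, 93 stayed close to the main value (counts within 1.5 times, differences within the row SD of 0.37) and 6 did not. The 10 genes have 1 row each and lie above every floor, so the choice of row and of floor could not move them, and the series-wide table gave the same median, 0.61. The 93 include these values, so that count does not measure how stable the 10 genes are. Loess centring raised each of their differences, to a median of 0.67, with 3 genes still at least 2-fold higher, and without S100a8 and S100a9 the median was 0.63. With a fold of 1.5 there were 5 genes higher (11.4% of all genes detected on both arrays), and with a fold of 3 there were 0 (2.38%). The threshold itself made this difference. The median of the B lineage list was -1.44 with rows averaged and -0.98 with no floor, and that of the type I interferon-stimulated list was 4.54 and 3.31. The cause of these shifts was not tested. With rows averaged, medians near 0 changed sign for the granulocyte transcription factors (0.14 to -0.0012) and the LT-HSC markers (-0.05 to 0.25). No paired analysis was possible because each group has 1 array. Leaving out a replicate was not possible for the same reason. Over all genes, loess centring moved the median difference from -0.04 to 0.00. Signal over background limits no member, the nearest to a floor being Padi4 at 1.61 (log2) above it, while the top of the scale leaves S100a9 and Ngp room for 0.48 and 0.64.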
